A study of Mus musculus with 48 samples.

Results

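The genes described here are 10 chromatin repressors known to hold down the 2-cell-like state of mouse embryonic stem cells (mESCs): *Kdm1a*, *Ehmt1*, *Ehmt2*, *Setdb1*, *Trim28*, *Rybp*, *Pcgf6*, *Chaf1a*, *Chaf1b* and *Rif1*. They were chosen by name, through the Ensembl identifiers of the GENCODE mouse annotation, and each matched 1 of the 55335 genes of both tables. RNA-seq was measured in 28 libraries and Ribo-seq, which counts the RNA fragments covered by ribosomes, in 4, with 2 libraries per group. All lines were genome-edited male hybrid 129-C57BL/6 mESCs grown with serum, LIF and 2i, and they carry a tamoxifen-activated Cre recombinase (Cre-ERT2) at the Rosa26 locus. *Nrde2*-KO cells, with *Nrde2* floxed, received 100 nM 4-hydroxytamoxifen (4OHT) for 4 d, and *Mtrex*-KO cells, with *Mtrex* floxed, for 3 d. For Ribo-seq, the labels give 4 d of 4OHT for the *Nrde2*-KO cells as well. The study's methods give 3 d before these cells were plated for a further night. *Nrde2d200* cells express NRDE2 without its 200 amino-terminal residues, *Nrde2-D174R* cells carry a point mutation in NRDE2, and neither was treated. *Ccdc174-dTAG* cells express CCDC174 fused to the FKBP12F36V degron and received 500 nM dTAG-13 for 24 h, which depletes the protein. Their control, called *Ccdc174* WT here, carries the same fusion without dTAG-13, and the other wild-type (WT) controls were untreated. A second set of *Nrde2* WT and *Nrde2*-KO libraries, and the *Ccdc174* libraries, were made without and with cycloheximide (CHX) at 0.1 mg/ml for 4 h, a translation inhibitor that also blocks nonsense-mediated decay. The same 2 WT libraries serve as control for *Nrde2*-KO, *Nrde2d200* and *Nrde2-D174R*.

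The 2-cell-like state is a rare, transient condition of cultured mESCs in which genes and endogenous retroviruses of the 2-cell embryo are expressed. The repressors act at several steps. KDM1A is a histone demethylase that works with corepressors and histone deacetylases, EHMT1 and EHMT2 form a dimer that methylates histone H3, and SETDB1, brought to retroviral sequences by TRIM28, methylates the same histone more fully. RYBP and PCGF6 are subunits of noncanonical polycomb complexes, CHAF1A and CHAF1B place new histones behind the replication fork as chromatin assembly factor 1, and RIF1 sets replication timing and binds heterochromatin. The study asked how NRDE2, its partner CCDC174 and the nuclear RNA helicase MTREX bear on the choice of 5′ splice sites, the sequences at the start of introns that pair with the RNA of the U1 small nuclear ribonucleoprotein.

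The 5′ splice sites of the members are therefore shown first. Each is printed 5′ to 3′ on the strand of the gene, with the last 3 exonic and the first 6 intronic bases in capitals and 6 bases on either side, from the RefSeq sequence of GRCm38.p6 at positions given by GENCODE M21. The capitals were set against CAGGTAAGT, the consensus complementary to U1, and matches were counted over the 9 letters. *Ehmt2* (chromosome 17, 34898469 to 34914052, plus strand) had 28 annotated sites, of which 11 had at most 5 matches. Those with 5 matches that at least 6 annotated transcripts use are printed, followed for comparison by 1 site with 5 matches from each of *Kdm1a*, *Chaf1b*, *Setdb1* and *Trim28*, all at exon ends inside the coding sequence.
Ehmt2, chr17:34907057-34907077: ttatgcTGTGTGAGTgtctga
Ehmt2, chr17:34907636-34907656: tacagcAAGGTGCGGgatggc
Ehmt2, chr17:34908550-34908570: ctgtgtTCTGTAAGCcctagc
Ehmt2, chr17:34912459-34912479: gataacAAGGTGGGAtgcagc
Ehmt2, chr17:34912801-34912821: ggagctGGGGTGAGGagccag
Kdm1a, chr4:136560311-136560331: cttaatAAGGTAGAGctttgc
Chaf1b, chr16:93894798-93894818: cctgaaAAGGTACACagatac
Setdb1, chr3:95324618-95324638: tacctcAATGTGAGAtgctga
Trim28, chr7:13027744-13027764: ggaccaTCAGTGAGTctgaag
The introns that follow the 5 printed *Ehmt2* sites were 265, 98, 79, 166 and 830 bases long.

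Sites with at most 5 matches made up 39.3% of those of *Ehmt2*, 33.3% of those of *Chaf1a*, 19.4% of those of *Ehmt1*, 9.52% of those of *Kdm1a*, 6.67% of those of *Chaf1b* and 5.88% of those of *Trim28*. They made up 25.0% of the 4 sites of *Rybp*, 18.2% of those of *Pcgf6*, 13.6% of those of *Setdb1* and 11.1% of those of *Rif1*. Over the 10 members the share was 18.0% of 200 sites, beside 19.1% of the 220465 sites of 20614 protein-coding genes, so the members as a set were near the share of all genes. *Ehmt2* also had short, GC-rich introns. Their median length was 115.5 bases, beside 1315 bases over all sites, and their median GC content was 59.7%, beside 45.0%. Of 14459 genes with at least 5 sites, 1.25% had shorter introns and 99.3% had introns of lower GC content. The introns of *Trim28* were as short, with a median of 96 bases, but of 47.9% GC. A match to the consensus is a description of the annotated sequence, and splicing itself was not measured in the tables used here.

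**Figure D1:**
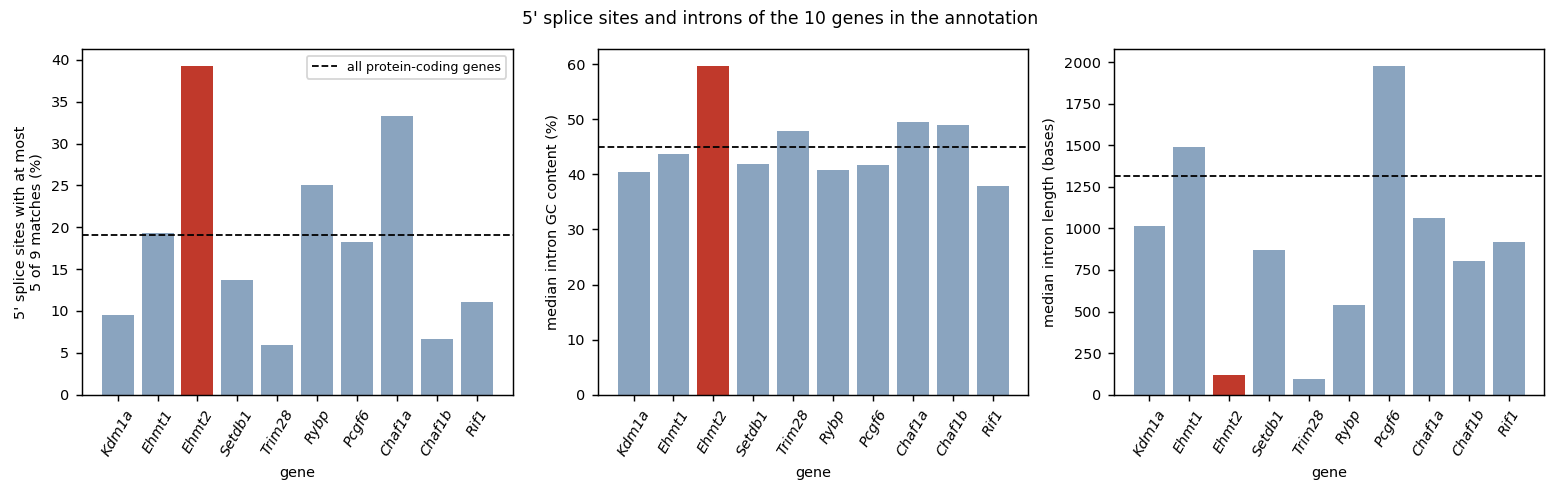
For each of the 10 genes, bars give the share of annotated 5′ splice sites with at most 5 of 9 matches to CAGGTAAGT (percent), the median length of the introns (bases) and their median GC content (percent), with *Ehmt2* in red and a dashed line at the value for all protein-coding genes. *Ehmt2* stands at 39.3% of sites and 59.7% GC, above the dashed lines at 19.1% and 45.0%. *Chaf1a*, at 33.3% and 49.6%, is also above both lines.

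Levels are given as normalized CPM, the deposited CPM (reads per gene scaled to the library's total) after each library was scaled by its median of ratios to the other libraries. In the WT libraries shared by *Nrde2*-KO, *Nrde2d200* and *Nrde2-D174R*, and per kilobase of exon, *Trim28* was the highest member at 417 ± 70.1 normalized CPM per kb (mean ± SD, n = 2). It was followed by *Rif1* at 97.1 ± 5.62, *Kdm1a* at 74.3 ± 1.59, *Setdb1* at 27.1 ± 1.58, *Ehmt2* at 26.9 ± 1.66 and *Chaf1b* at 21.9 ± 1.20. *Pcgf6* at 15.8 ± 1.63, *Rybp* at 13.5 ± 0.303, *Chaf1a* at 11.9 ± 0.0983 and *Ehmt1* at 11.2 ± 0.351 were the lowest. *Setdb1* and *Ehmt2* did not differ beyond their spread. In the WT Ribo-seq libraries the per-kilobase order again began with *Trim28*, at 463 ± 34.6, and *Kdm1a*, at 44.3 ± 3.85, came before *Rif1*, at 22.4 ± 0.387. *Rybp* was last there, at 2.00 ± 0.00709, and rested on 73 and 71 reads, against 49 and 56 in *Nrde2*-KO. Lengths in both assays are of all annotated exons, untranslated regions included (4740 bases in *Rybp*, 8854 in *Chaf1a*). The order therefore depends partly on them. In RNA-seq each member had between 589 and 89613 reads per library, and in Ribo-seq between 49 and 15251.

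Some members varied little over the 14 RNA-seq groups. *Ehmt1* ranged from 83.9 to 107 normalized CPM over the 28 libraries, a 1.28-fold range. *Chaf1b* ranged from 20.4 to 118, a 5.76-fold range, and *Ehmt2* from 64.2 to 178, a 2.77-fold range. The other members lay between 1.66-fold, in *Rybp*, and 2.79-fold, in *Pcgf6*.

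**Figure D2:**
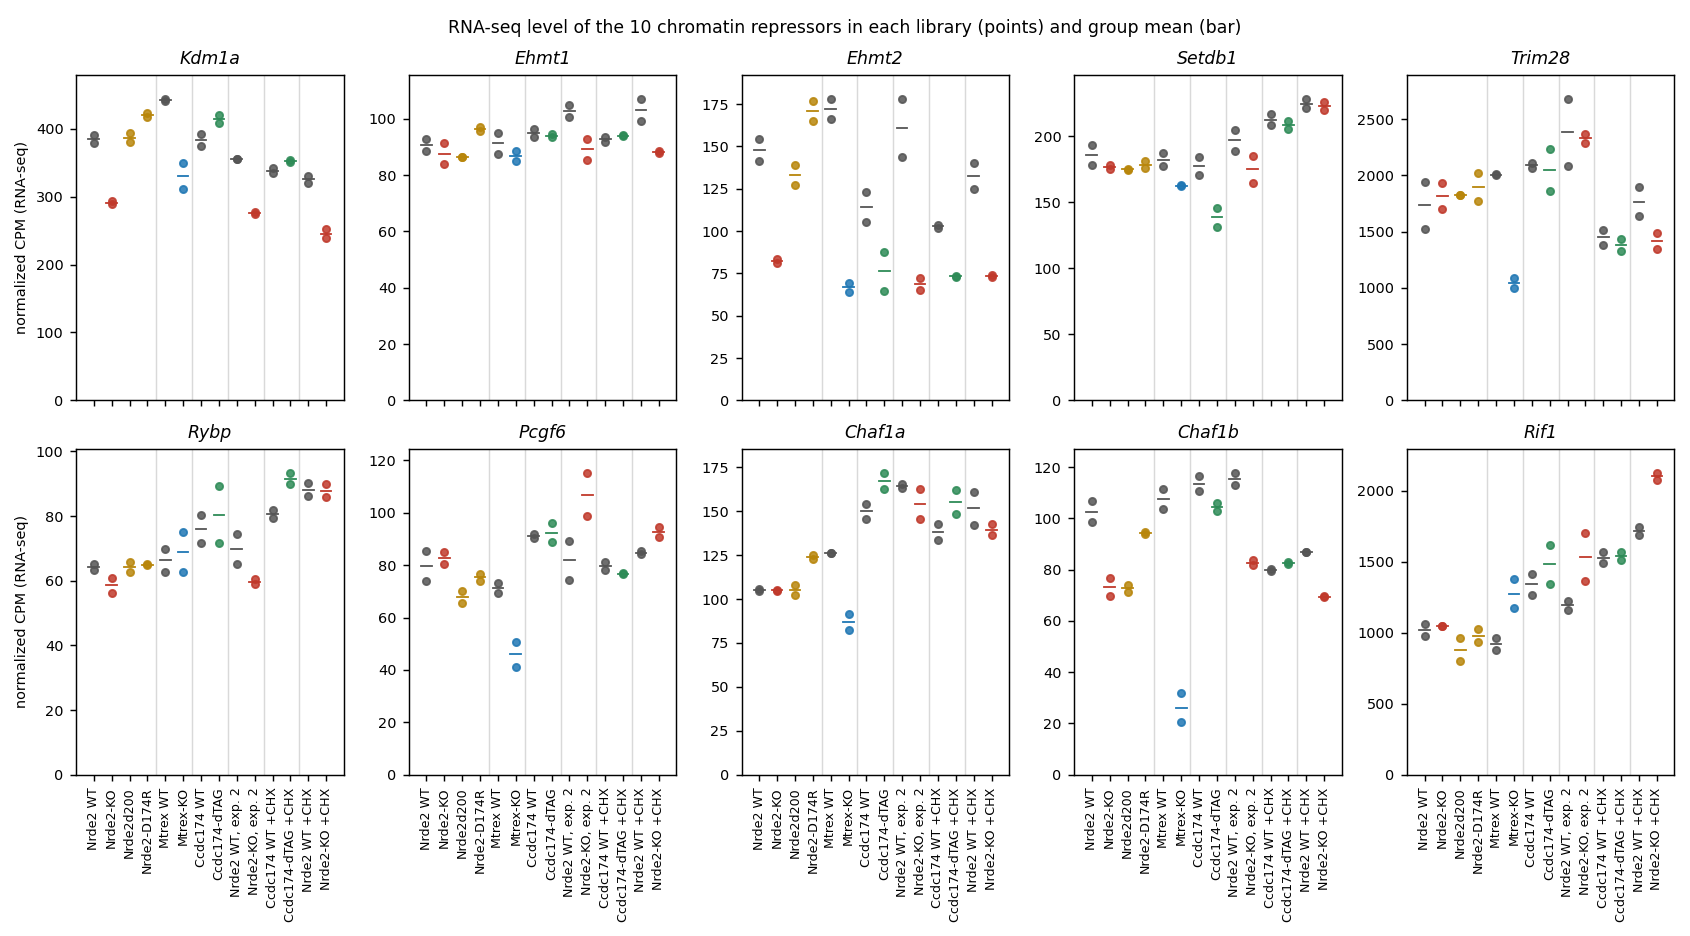
Normalized CPM (linear axis from 0) of each of the 10 genes in the 28 RNA-seq libraries, as points for single libraries and short bars for the mean of the 2 libraries of a group, with WT in grey, *Nrde2*-KO in red, *Nrde2d200* and *Nrde2-D174R* in ochre, *Mtrex*-KO in blue and *Ccdc174-dTAG* in green. *Ehmt2* is lower in the knockout or depleted libraries than in their WT libraries in every pair, *Chaf1b* is lowest in *Mtrex*-KO at 20.4 and 31.7, and *Ehmt1* stays between 83.9 and 107.

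Before the comparisons, the labels were checked on the targeted genes. *Nrde2* fell from 41.3 and 40.3 to 19.2 and 20.3 normalized CPM in *Nrde2*-KO, from 53.3 and 51.9 to 19.8 and 19.6 in the second experiment, and from 12.2 and 14.2 to 2.33 and 3.24 in Ribo-seq. *Mtrex* fell from 118 and 111 to 46.2 and 41.3 in *Mtrex*-KO. With CHX, *Nrde2* was at 257 and 249 in the libraries labelled *Nrde2*-KO and at 242 and 224 in WT, so its level does not separate these libraries. The mRNA of *Ccdc174* does not check its label, since dTAG-13 acts on the protein. All 28 RNA-seq libraries expressed the mESC markers (*Pou5f1* from 397 to 1024), and the summed level of 4 fibroblast markers was at most 3.94. The *Mtrex*-KO libraries stood apart, with 72.1% and 82.7% of the total in genes and the largest difference between replicates of any group, a chi-square per gene of 98.4 beside 42.9 in *Ccdc174-dTAG* and 31.9 or less in the other groups.

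The test throughout was limma on log2 of normalized CPM, with Benjamini-Hochberg adjusted p below 0.01 over all genes tested, and a log2 fold change beyond 1 in addition where differential expression is named. In *Nrde2*-KO, *Ehmt2*, *Kdm1a* and *Chaf1b* fell, and no member rose. Lower calls made up 10.6% of the 14889 genes tested and higher calls 7.64%. *Ehmt2*, the catalytic partner of EHMT1, was at 141 and 154 in WT and at 83.3 and 81.3 in *Nrde2*-KO. The groups lie apart, and *Ehmt2* fell by 0.84 on the log2 scale (SE 0.13, adjusted p = 9.87e-05, limma). *Kdm1a* was at 379 and 390 in WT and at 293 and 290 in *Nrde2*-KO, a fall by 0.40 on the log2 scale (SE 0.07, adjusted p = 0.000482, limma) that was not called with CPM as deposited (adjusted p = 0.0397). *Chaf1b* was at 98.6 and 107 against 69.5 and 76.6 and fell by 0.49 on the log2 scale (SE 0.13, adjusted p = 0.00933, limma), a call that was lost when any 1 of the 4 libraries was left out, with adjusted p between 0.0247 and 0.0895, and also without a filter or with CPM as deposited. The other 7 members lay between −0.13 and 0.08 on the log2 scale and did not pass. *Ehmt1* in particular was at 92.7 and 88.7 in WT and at 91.4 and 83.9 in *Nrde2*-KO, and these libraries overlap. The median log2 fold change of the members was −0.06, beside 0.00 over all genes tested. The summed level of 5 primitive endoderm markers was 19.9 and 17.7 in *Nrde2*-KO and 11.8 and 11.4 in WT, 15.5 and 11.6 against 9.63 and 8.09 in the second experiment, and 23.4 and 19.1 against 12.6 and 11.7 with CHX. Their sum was also higher in *Nrde2d200* (14.1 and 16.7) and *Mtrex*-KO (15.9 and 14.3 against 11.0 and 10.5). It was 6.57 and 6.71 in *Ccdc174-dTAG* against 4.54 and 4.37. *Nrde2-D174R*, at 10.7 and 12.5, overlapped its WT. The 7 mESC markers summed to 2954 and 3329 in *Nrde2*-KO and 3363 and 3889 in WT. They summed to 3822 and 3868 against 4103 and 4175 in the second experiment, and 2689 and 2607 against 3050 and 3103 with CHX. The part of these markers in the changes of the repressors was not tested. Nothing in the labels says that the libraries of a group are separate cultures, so these p-values measure the spread between libraries, which may be technical.

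The second *Nrde2*-KO experiment has WT libraries of its own and gave lower calls in 11.3% of genes and higher calls in 7.44%. *Ehmt2* was at 144 and 178 in WT and at 72.2 and 65.5 in *Nrde2*-KO. It was the member with the largest change and passed the threshold for differential expression, as 2.4% of all genes did downward, with a log2 difference from WT of −1.22 (SE 0.13, adjusted p = 1.86e-06, limma). *Kdm1a* was at 356 in both WT libraries and at 274 and 278 in *Nrde2*-KO, a log2 difference from WT of −0.37 (SE 0.07, adjusted p = 0.000929, limma) that missed the threshold without WT replicate 2 (adjusted p = 0.0105) and with CPM as deposited (adjusted p = 0.0583). *Chaf1b*, at 113 and 118 against 81.6 and 83.9, had a log2 fold change of −0.48 and an adjusted p of 0.0105, just above the threshold. It passed with edgeR, with DESeq2, with a pseudocount of 1, with only the compared groups and with the replicate block. *Pcgf6* and *Rif1* had positive values, 0.38 and 0.35, that did not pass (adjusted p = 0.0151 and 0.0414). *Pcgf6* passed with DESeq2 (adjusted p = 0.00803) and with the replicate block, and *Rif1* with the block. The median over the members was −0.19, beside 0.01 over all genes.

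No member passed in *Nrde2d200*, where 7.49% of all genes passed in either direction, or in *Nrde2-D174R*, where 0.396% did. The calls over all genes numbered 1115 in *Nrde2d200* and 59 in *Nrde2-D174R*. Both counts were lower with 1 library left out, but such a fit leaves 1 library in a group and has less power. At an unadjusted p under 0.05, 1 member had a difference in each, beside 30.1% and 17.6% of all genes. In *Nrde2d200* that member was *Chaf1b*, at 74.0 and 71.4 against 98.6 and 107 in WT, with a log2 difference from WT of −0.50 (SE 0.13, adjusted p = 0.0158, limma). With DESeq2 *Chaf1b* passed and was the 1 member called in *Nrde2d200*, edgeR called 0 there, and both tools called 0 members in *Nrde2-D174R*. *Ehmt2* was at 127 and 139 in *Nrde2d200*, below both WT libraries, with a log2 fold change of −0.15 that did not pass (adjusted p = 0.463). In *Nrde2-D174R* it was at 165 and 177, above both WT libraries, with a log2 fold change of 0.21 that did not pass (adjusted p = 0.402). These comparisons use the same WT libraries as *Nrde2*-KO and are not independent of it.

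In *Mtrex*-KO 6 members fell and 1 rose, in a comparison in which 27.4% of all genes were called lower and 28.5% higher. The largest fall among them was in *Chaf1b*, which was at 104 and 112 normalized CPM in WT and at 20.4 and 31.7 in *Mtrex*-KO. Its log2 fold change was −2.07 (SE 0.13, adjusted p = 5.37e-10, limma). *Chaf1a*, the large subunit of the same complex, was at 126 in both WT libraries and at 82.6 and 91.6 in *Mtrex*-KO, and fell by 0.54 (SE 0.08). *Ehmt2* was at 178 and 166 in WT and at 69.3 and 64.2 in *Mtrex*-KO, a log2 difference from WT of −1.36 (SE 0.13, adjusted p = 4.96e-08, limma). These groups lie far apart, and *Chaf1b* and *Ehmt2* passed the threshold for differential expression, as 10.9% of all genes did downward. *Trim28* was at 2004 and 2011 against 999 and 1093 and fell by 0.94 (SE 0.13). *Pcgf6* was at 69.5 and 73.3 against 41.3 and 50.8 and fell by 0.64 (SE 0.11), and *Kdm1a* was at 441 and 445 against 312 and 349 and fell by 0.42 (SE 0.07). *Rif1* rose, from 879 and 961 to 1173 and 1376, by 0.47 (SE 0.13, adjusted p = 0.00357, limma), and it missed the threshold without WT replicate 1 or without *Mtrex*-KO replicate 2. The 6 falls passed without either *Mtrex*-KO library, but with only the compared groups *Kdm1a* (adjusted p = 0.028), *Pcgf6* (adjusted p = 0.0105) and *Rif1* (adjusted p = 0.04) did not pass. With the CPM as deposited, in which the median of all genes was at −0.38, *Rif1* was at 0.07 and not called, and the share of lower calls among all called genes was 72.5% in place of 49.0%. *Setdb1*, *Ehmt1* and *Rybp* lay between −0.16 and 0.05 and did not pass. With CPM as deposited, *Setdb1* was at −0.56 and *Ehmt1* at −0.47 and both passed, as values not centred on the median of all genes, while *Rybp* was at −0.35 and did not. The median of the members was −0.48, beside 0.00 over all genes.

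Other markers moved in *Mtrex*-KO as well. The summed level of 5 trophectoderm markers was 441 and 479 in *Mtrex*-KO and 55.8 and 93.0 in its WT, mainly *Krt8* and *Krt18*, while *Cdx2* and *Elf5* were at most 4.28 and 0.312 in any library. The 7 mESC markers summed to 2602 and 3390, beside 3844 and 4201. Their part in the changes of the repressors was not tested, and in bulk RNA fewer cells of a type cannot be told apart from less RNA per cell.

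The difference between the *Mtrex*-KO and *Nrde2*-KO effects was tested directly, a comparison that called 31.5% of all genes. *Chaf1b* (difference −1.58, SE 0.19), *Trim28* (−1.02, SE 0.19), *Pcgf6* (−0.70, SE 0.16) and *Chaf1a* (−0.54, SE 0.11) were lower in *Mtrex*-KO relative to WT than in *Nrde2*-KO, on the log2 scale. *Trim28* was at 1705 and 1936 in *Nrde2*-KO and at 1528 and 1940 in WT, and *Chaf1a* at 105 and 105 against 106 and 104, and for both genes these libraries overlap. The call of *Pcgf6* was lost without *Nrde2* WT replicate 1 or *Nrde2*-KO replicate 2, and with only the compared groups. For *Ehmt2* the difference was −0.52 (SE 0.18, adjusted p = 0.0243, limma) and for *Kdm1a* −0.02 (SE 0.10), and neither passed. *Ehmt2* passed with CPM as deposited, at −0.98, and with the replicate block, and *Setdb1* passed with CPM as deposited, at −0.55. The tests of *Mtrex*-KO and *Nrde2*-KO compare lines with different days of 4OHT.

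Depletion of CCDC174 was followed by lower *Ehmt2* and *Setdb1*, where 4.45% of all genes were called lower and 1.14% higher. *Ehmt2* was at 123 and 106 in WT and at 87.7 and 64.9 in *Ccdc174-dTAG*, with a log2 difference from WT of −0.59 (SE 0.13, adjusted p = 0.00461, limma). *Setdb1* was at 184 and 170 against 146 and 131, with −0.36 (SE 0.08, adjusted p = 0.00861, limma). For both genes the groups do not overlap, but both calls were lost without WT replicate 1, without WT replicate 2 or without *Ccdc174-dTAG* replicate 2, and without a filter, with CPM as deposited and with only the compared groups. The other 8 members lay between −0.12 and 0.15. The *Ccdc174-dTAG* effect differed from that of *Nrde2*-KO for *Kdm1a* alone, by 0.51 (SE 0.10, adjusted p = 0.00679, limma), beside 1.65% of all genes. *Kdm1a* was at 393 and 375 in *Ccdc174* WT and at 409 and 420 after depletion, and the call of the difference was lost without any 1 of the 8 libraries, without a filter and with CPM as deposited.

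**Figure D3:**
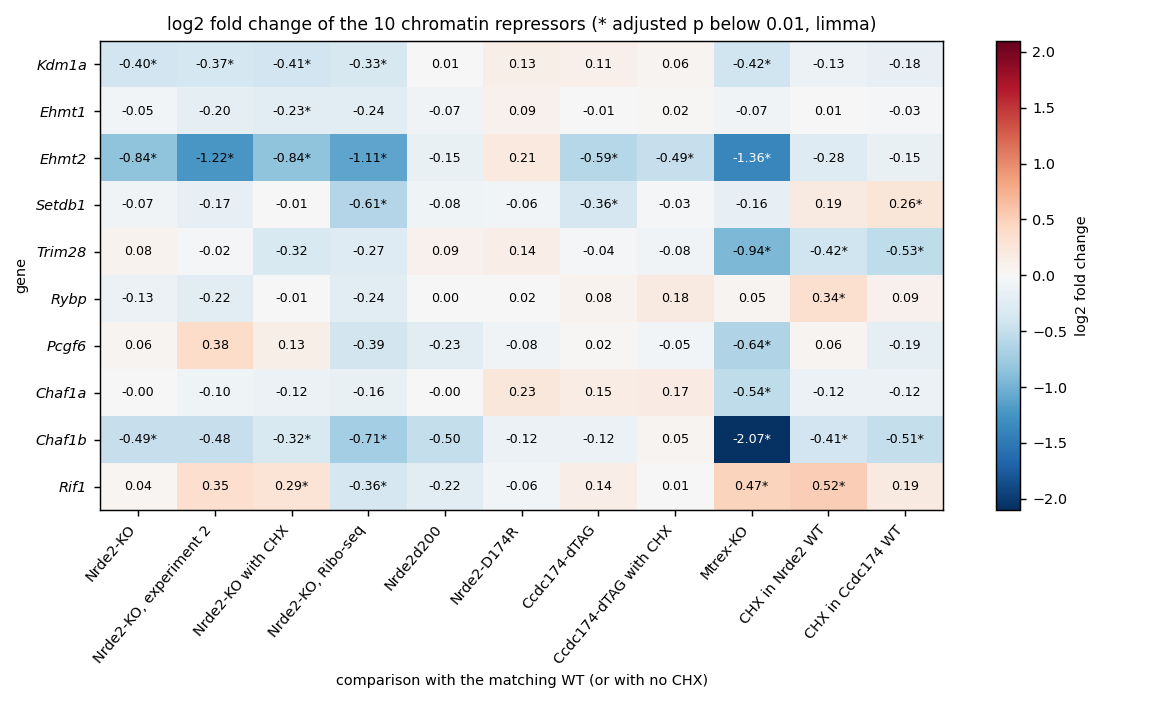
Heat map of the log2 fold change of the 10 genes (rows) in 11 comparisons (columns), with blue for lower and red for higher, the value in each cell and an asterisk at limma adjusted p below 0.01. The *Ehmt2* row is below 0 in all columns but *Nrde2-D174R*, and the most extreme cell is *Chaf1b* in *Mtrex*-KO at −2.07.

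With CHX the comparison of the libraries labelled *Nrde2*-KO with their WT called 15.4% of all genes lower and 12.5% higher. Of the members, *Ehmt2*, *Kdm1a*, *Chaf1b* and *Ehmt1* were lower and *Rif1* was higher. *Ehmt2* was at 125 and 140 in WT with CHX and at 73.1 and 74.3 in the libraries labelled *Nrde2*-KO with CHX, a log2 difference from WT of −0.84 (SE 0.06, adjusted p = 3.18e-06, limma). *Kdm1a* was at 331 and 321 against 252 and 239 (−0.41, SE 0.05), and *Chaf1b* at 86.7 and 87.0 against 69.2 and 69.5 (−0.32, SE 0.05). Groups of all 3 genes lie apart. *Ehmt1* was at 99.4 and 107 against 87.8 and 88.7, with −0.23 (SE 0.05, adjusted p = 0.00453, limma), and *Rif1* at 1688 and 1742 against 2079 and 2125, with 0.29 (SE 0.06, adjusted p = 0.00185, limma). The call of *Ehmt1* was lost without WT replicate 2 or either library labelled *Nrde2*-KO, and that of *Rif1* without WT replicate 1 or either library labelled *Nrde2*-KO. That of *Ehmt1* was also lost without a filter and with only the compared groups. *Trim28*, at 1638 and 1894 against 1350 and 1484 (−0.32, adjusted p = 0.0104), did not pass with limma but passed with edgeR, with DESeq2, with CPM as deposited and with the replicate block. In *Ccdc174-dTAG* with CHX, where 5.87% of all genes were called lower and 3.19% higher, *Ehmt2* was the only member called, though the replicate block added *Rybp* and *Chaf1a*. It was at 104 and 102 in WT and at 73.1 and 73.2 after depletion, with −0.49 (SE 0.06, adjusted p = 0.000358, limma), and this call held without each library in turn.

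The effect with CHX was then compared with that without it. No member passed, beside 0.515% of all genes for *Nrde2*-KO and 0.251% for *Ccdc174-dTAG*, at an unadjusted p under 0.05 there were 0 and 1 members, and edgeR and DESeq2 called 0 in both. For *Ehmt2* the differences between the effects were 0.37 (SE 0.18, adjusted p = 0.342, limma) and 0.11 (SE 0.18, adjusted p = 0.911, limma), so a change of its fall under CHX was not detectable with 2 libraries per group. CHX itself moved a large share of the transcriptome. In *Nrde2* WT 22.4% of genes were called lower and 25.1% higher, and in *Ccdc174* WT 24.1% and 25.4%. *Trim28* fell in both, from 2083 and 2683 to 1638 and 1894 (−0.42, SE 0.12) and from 2114 and 2068 to 1519 and 1385 (−0.53, SE 0.12). *Chaf1b* fell in both as well, by 0.41 (SE 0.06) and 0.51 (SE 0.06), and these groups lie apart. *Rif1* rose in *Nrde2* WT, from 1162 and 1223 to 1688 and 1742 (0.52, SE 0.10). *Rybp* rose there by 0.34 (SE 0.09) and *Setdb1* in *Ccdc174* WT by 0.26 (SE 0.07). The calls of *Rybp* and *Setdb1* were each lost without the second library made without CHX or either library with CHX, that of *Trim28* in *Nrde2* WT without the second library made without CHX or the first with it, and that of *Trim28* in *Ccdc174* WT without the first library made without CHX or the second with it. With CPM as deposited, in which the median of all genes was at 0.20 and 0.21, *Chaf1b* was at −0.20 and −0.28 and was called in *Ccdc174* WT alone, *Trim28* was at −0.22 and −0.29 and not called in either, *Setdb1* was called in both, at 0.40 and 0.49, and *Rif1* in both, at 0.73 and 0.42. The calls of *Trim28* and *Rybp* in *Nrde2* WT and of *Setdb1* in *Ccdc174* WT were lost without a filter, and that of *Trim28* in *Nrde2* WT with only the compared groups. The 7 mESC markers summed to 4103 and 4175 in *Nrde2* WT and 3050 and 3103 with CHX, and to 3525 and 3857 in *Ccdc174* WT and 2520 and 2579 with CHX, and their part was not tested. *Ehmt2* was not called for CHX in either line (−0.28, adjusted p = 0.0707, and −0.15, adjusted p = 0.312, limma).

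In Ribo-seq, 5 members fell in *Nrde2*-KO and none rose, where 14.2% of 13857 genes were called lower and 11.0% higher. *Ehmt2* was at 79.8 and 81.6 in WT and at 38.0 and 36.7 in *Nrde2*-KO and was differentially expressed, as 2.8% of all genes were downward, with a log2 difference from WT of −1.11 (SE 0.09, adjusted p = 1.38e-08, limma). *Chaf1b* was at 77.6 and 78.2 against 51.9 and 43.7 (−0.71, SE 0.10), and *Setdb1* at 91.6 and 94.0 against 59.8 and 61.6 (−0.61, SE 0.08). *Rif1* was at 232 and 238 against 172 and 197 (−0.36, SE 0.08), and *Kdm1a* at 215 and 244 against 182 and 181 (−0.33, SE 0.08). All 5 pairs of groups lie apart, though *Kdm1a* was not called without WT replicate 2 and *Rif1* not without *Nrde2*-KO replicate 1, and neither was called without a filter. *Pcgf6* (−0.39, adjusted p = 0.0105) and *Trim28* (−0.27, adjusted p = 0.0211) did not pass, although *Trim28* did with DESeq2 and the replicate block, and *Pcgf6* with the block and with a filter of 1 CPM. All 10 members had a value below 0, with a median of −0.34 beside 0.00 over all genes. With the CPM as deposited, in which the median of all genes was at 0.15, 30.9% of all calls were lower in place of 56.3%, and 2 members passed, *Ehmt2* and *Chaf1b*.

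The Ribo-seq effect was set against the RNA-seq effect of the first *Nrde2*-KO experiment as an interaction, which 6.94% of 12788 genes passed. *Setdb1* was the only member that did, with a difference of −0.54 (SE 0.10, adjusted p = 0.00321, limma). Its RNA was at 178 and 193 in WT and at 175 and 178 in *Nrde2*-KO, while its ribosome footprints were lower in both *Nrde2*-KO libraries. This call was kept without *Nrde2* WT replicate 2 of the RNA-seq or *Nrde2*-KO replicate 2 of the Ribo-seq and was lost without any 1 of the other 6 libraries and with CPM as deposited. *Rif1* (−0.39, adjusted p = 0.0262) and *Pcgf6* (−0.45, adjusted p = 0.0322) did not pass, *Rif1* passing with DESeq2. For *Ehmt2* the difference was −0.27 (SE 0.11, adjusted p = 0.105, limma). The RNA-seq and Ribo-seq cells had different schedules of 4OHT.

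**Figure D4:**
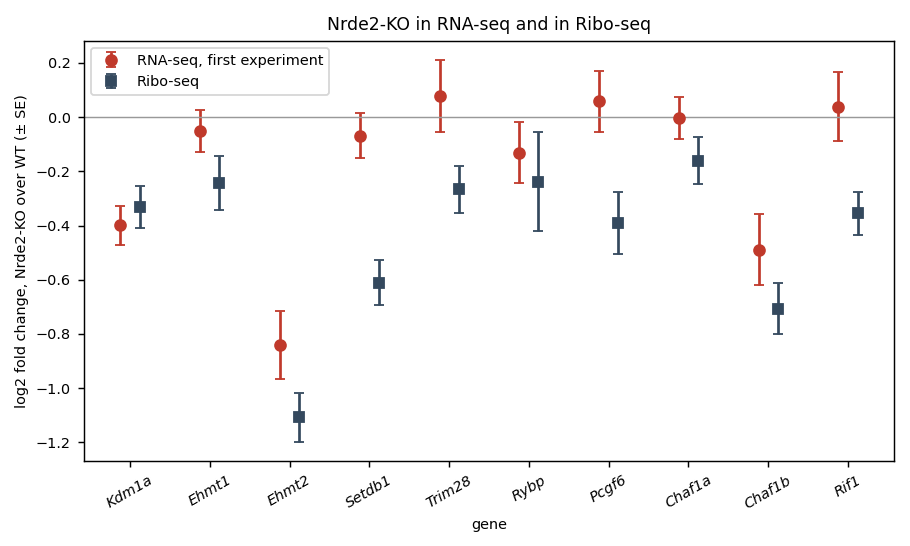
Log2 fold change in *Nrde2*-KO relative to WT (vertical axis) for each of the 10 genes (horizontal axis). RNA-seq of the first experiment (red circles) and Ribo-seq (dark squares) stand side by side, with bars of 1 SE and a horizontal line at 0. *Ehmt2* lies farthest down in both assays, at −0.84 and −1.11. For *Setdb1* the Ribo-seq value lies below the RNA-seq value, at −0.61 against −0.07.

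The genes that work with these repressors were followed as a list of 51 partners, the other subunits and cofactors of the same complexes and pathways. In *Nrde2*-KO 10 fell and 3 rose, which is 19.6% and 5.88% of the list beside 10.6% and 7.64% of all genes. In the second experiment 7 fell and 3 rose, 13.7% and 5.88% beside 11.3% and 7.44%. In *Mtrex*-KO 17 fell and 12 rose, 33.3% and 23.5% beside 27.4% and 28.5%, so there and in the second *Nrde2*-KO experiment the shares were near those of all genes. In *Ccdc174-dTAG* 4 fell and 1 rose, 7.84% and 1.96% beside 4.45% and 1.14%, in *Nrde2d200* 3 fell, 5.88% beside 7.49% of all genes in either direction, and in *Nrde2-D174R* 0 passed, with 9 at an unadjusted p under 0.05 and 0 by edgeR and by DESeq2. In Ribo-seq 25 of the 51 fell and 1 rose, 49.0% and 1.96% beside 14.2% and 11.0%, and their median was −0.37 beside 0.00. With CPM as deposited, lower calls were 30.9% of all Ribo-seq calls in place of 56.3%. Many partners were also lower under CHX in WT, 41.2% in *Nrde2* WT and 45.1% in *Ccdc174* WT, beside 22.4% and 24.1% of all genes. Higher there were 5.88% and 1.96%, beside 25.1% and 25.4%. In the libraries labelled *Nrde2*-KO with CHX 25.5% were lower and 7.84% higher, beside 15.4% and 12.5%. In *Ccdc174-dTAG* with CHX 7.84% were lower and 7.84% higher, beside 5.87% and 3.19%. Partners are named below because they passed in both *Nrde2*-KO experiments in the same direction, so their passing there was set by that choice. *Pcgf5* was named for its change in *Mtrex*-KO. *Rcor2*, a CoREST scaffold of KDM1A, had log2 fold changes of −0.84 and −1.16 in the 2 *Nrde2*-KO experiments, −1.53 in *Mtrex*-KO and −0.95 in Ribo-seq, all past the test. *Hdac1*, a deacetylase of the same complex, was at −0.39, −0.46 and −0.75 in the 3 knockout RNA-seq comparisons, also past it. In Ribo-seq *Hdac1* was at −0.41 and did not pass (adjusted p = 0.0267, limma). Among subunits of the complex that holds PCGF6, *L3mbtl2* (−0.64 and −0.81) and *Tfdp1* (−0.66 and −0.99) fell in both *Nrde2*-KO experiments, while *E2f6* rose by 0.50 and 0.55. *Pcgf5*, a paralog of *Pcgf6*, rose in *Mtrex*-KO, by 1.90 (SE 0.18), and was at 0.11 and 0.10 in *Nrde2*-KO. *Morc2a*, which acts with the HUSH complex and SETDB1, was at −0.68 and −0.69 in the *Nrde2*-KO experiments and at −0.79 in *Ccdc174-dTAG*, past the test in each. *Dnmt1*, the maintenance DNA methyltransferase, was at −0.66, −0.77 and −0.70 there, and *Uhrf1*, which guides it to replicating DNA, was at −0.62 and −0.63 in *Nrde2*-KO and at −2.01 in *Mtrex*-KO.

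Genes of the 2-cell-like state were set beside these values from a list of 22, of which 18 were tested without CHX. A gene was tested if its mean over all libraries of a fit, knockouts included, reached 0.5 CPM. Genes hardly expressed in WT could thus enter through the knockout libraries in which they are high. The counts of genes higher among those tested are therefore partly set by this filter. Several of them, such as the *Zscan4* genes, are near-identical copies, and since only uniquely mapped reads were counted, their levels are uncertain. In *Nrde2*-KO 13 of the 18 were differentially expressed upward, beside 3.02% of all genes, in the second experiment 17, beside 2.4%, and in *Mtrex*-KO 18, beside 15.8%. In *Nrde2d200* there were 3, beside 1.58%. In *Nrde2-D174R* and *Ccdc174-dTAG* there were 0, beside 0.154% and 0.228% of all genes, and there were 0 as well at an unadjusted p under 0.05 and by edgeR and DESeq2. With CHX, 13 of 13 tested genes were differentially expressed upward in the libraries labelled *Nrde2*-KO, beside 2.82%, and 0 of 13 in *Ccdc174-dTAG*, beside 0.207%, where 0 also passed at an unadjusted p under 0.05 and by edgeR and DESeq2. Whether the level of any repressor bears on them was not tested in these libraries. In separate experiments, the paper combined *Nrde2* knockout with knockout of *Kdm1a* or of *Ehmt2* and reported an additive rise of 2-cell genes. It concluded that NRDE2 acts on endogenous retroviruses of this state independently of facultative heterochromatin. The paper regards the rise of 2-cell genes in *Nrde2* or *Mtrex* knockout as likely a pleiotropic effect of altered RNA metabolism.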

How the data were processed

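RNA-seq and Ribo-seq libraries of mESCs were analysed per gene. Alignment by the authors was to mm10 with STAR (submitters' notes: 2.7.0a and 2.7.3a). Uniquely mapped, strand-matched reads were assigned to genes with featureCounts and deposited by the authors as CPM of 55335 genes. Values were whole multiples of 1 read (100% within 0.1), so reads were recovered. RNA-seq libraries held 28683644 to 36272309 reads in genes and Ribo-seq libraries 3475051 to 5035940, which gives members with few Ribo-seq reads the least precision.

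Each library's CPM were scaled by its median of ratios, and log2 was taken after adding 0.25. A model with a mean-variance trend was fitted in limma 3.58.1 (R 4.3.3) to genes of at least 0.5 CPM on average, with Benjamini-Hochberg adjustment over all genes tested. Separate fits held the 20 libraries without CHX, the 8 with CHX, the 16 of both experiments with CHX, and the 4 Ribo-seq libraries. Another fit held the latter with the *Nrde2* WT and *Nrde2*-KO RNA-seq of the first experiment. A fold change is on the scale of log2(CPM + 0.25). Exon lengths used for levels per kb include untranslated regions. The step was tested on simulated data. edgeR 4.0.16 and DESeq2 1.42.0 on the recovered reads, other pseudocounts (0.1 and 1), filters (none, or 1 CPM), CPM as deposited, a replicate block, only the compared groups and leaving out each library were alternatives. In *Nrde2*-KO edgeR called 2733 genes and limma 2716. All pairs of replicates differed by more than sampling noise. The partners named are those past the test in both *Nrde2*-KO experiments and the one with the largest change among those differentially expressed in another comparison, and 1 of them is not reported here. Members and lists were chosen with earlier results of these data known. Splice sites of protein-coding genes were taken from GENCODE M21 on GRCm38. The crosslinking libraries of the series were not used here.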

Additional observations from a re-analysis of the deposited data

Results flagged for a closer look

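Differences between the effects of 2 perturbations passed the test for some members, on the log2 scale with limma. The *Mtrex*-KO effect was below the *Nrde2*-KO effect for *Chaf1b* by a difference of −1.58, for *Trim28* by −1.02, for *Pcgf6* by −0.70 and for *Chaf1a* by −0.54. The *Ccdc174-dTAG* effect on *Kdm1a* was above the *Nrde2*-KO effect by 0.51, and the Ribo-seq effect of *Nrde2*-KO on *Setdb1* was below the RNA-seq effect by a difference of −0.54. The calls of *Pcgf6*, *Kdm1a* and *Setdb1* were not kept in every fit with 1 library left out, which leaves 1 library in a group. *Nrde2* itself was not lower in the libraries labelled *Nrde2*-KO with CHX than in WT with CHX, at 257 and 249 against 242 and 224.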

How the results depend on the processing

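Of 38 calls of members over 16 comparisons, 17 passed in the same direction under all alternatives, among them every call of *Ehmt2* except that in *Ccdc174-dTAG* without CHX, and no called value changed sign. With all libraries kept, 11 calls were lost without a filter, 14 with CPM as deposited and 8 with only the compared groups, and none with edgeR, DESeq2, other pseudocounts, 1 CPM or the block. The number of members called in *Nrde2*-KO was 1 with CPM as deposited. In *Nrde2d200* it was 1 with the replicate block, 1 with DESeq2 and 1 with only the compared groups. In *Mtrex*-KO it was 4 with only the compared groups. In *Ccdc174-dTAG* it was 0 without a filter, 0 with CPM as deposited and 0 with only the compared groups, and with CHX it was 3 with the replicate block. In the second *Nrde2*-KO experiment it was 1 with CPM as deposited, 5 with the block and 4 with DESeq2. For the difference between *Ccdc174-dTAG* and *Nrde2*-KO it was 0 without a filter and 0 with CPM as deposited. For CHX in *Nrde2* WT it was 2 without a filter. In Ribo-seq it was 3 without a filter and 2 with CPM as deposited, and for Ribo-seq against RNA-seq 0 with CPM as deposited and 2 with DESeq2. The cause was not tested. With 1 library left out, the number was 2 in each case in *Nrde2*-KO, 1 to 2 in its second experiment, 6 to 7 in *Mtrex*-KO, 0 to 2 in *Ccdc174-dTAG*, 1 in each case in *Ccdc174-dTAG* with CHX, 3 to 5 in the libraries labelled *Nrde2*-KO with CHX, 2 to 4 and 1 to 2 for CHX in *Nrde2* and *Ccdc174* WT, 3 to 4 for *Mtrex*-KO against *Nrde2*-KO, 0 for *Ccdc174-dTAG* against *Nrde2*-KO, 4 to 6 in Ribo-seq, 0 to 1 for Ribo-seq against RNA-seq and 0 in *Nrde2d200*, in *Nrde2-D174R* and in both interactions with CHX. A group left with 1 library was assumed to vary like the others. CPM as deposited moved the median of all genes in *Mtrex*-KO to −0.38, under CHX to 0.20 and 0.21, in Ribo-seq to 0.15, and the share of lower calls among all calls from 58.1 to 44.4% in *Nrde2*-KO, 57.04 to 42.7% in *Nrde2d200*, 44.6 to 77.3% for *Mtrex*-KO against *Nrde2*-KO, 50.8 to 67.5% for *Ccdc174-dTAG* against *Nrde2*-KO, 47.2 to 23.9% and 48.6 to 24.5% for CHX, and 36.8 to 10.3% for Ribo-seq against RNA-seq. Over all genes, counts of calls differed by more than 1.5 times in 9 of 16 comparisons without a filter and 9 with the block, 6 with only the compared groups, 5 with DESeq2 and 4 with CPM as deposited. In *Nrde2*-KO 2716 genes were called, 4157 with the block and 1265 to 1523 with 1 library left out. The labels do not say that replicate numbers pair samples. Deviations of same-numbered samples correlated between −0.066 and 0.454 across genes over the RNA-seq pairs and by −0.0304 in Ribo-seq, and the replicate block added 12 calls of members.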

Other observations

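The gene whose mean level over the 14 RNA-seq groups was most like that of each member was found by Pearson's r across groups among 13456 genes, as a description. For *Ehmt2* it was *Vegfb* (r = 0.963), for *Kdm1a* *Fbxo6* (0.947), for *Chaf1b* *Syce2* (0.982), for *Rif1* *Cnot2* (0.974) and for *Trim28* *Ccna2* (0.961). *Ehmt1*, which varied least, had no gene closer than *Mycn* (0.829).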
